A study of Homo sapiens with 2 samples.

Results

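The cytochrome P450 genes were described in Huh7 cells, an established line of human hepatocellular carcinoma, with and without knockdown of NEIL3, a DNA glycosylase. The genes were taken by name. All protein-coding genes whose symbol is CYP followed by a family number, a subfamily letter and a member number were included, except CYP51A1 of cholesterol synthesis. The rule found 54 genes among the 58220 in the table, and no measured value entered it. RNA sequencing covered 1 library of cells with the genotype control, titled shGFP (a hairpin control aimed at the jellyfish reporter GFP), and 1 library titled Neil3 KD. Both came from Huh7 cells at passages 5 to 8, and the knockdown method was not given in the sources used here. NEIL3 is studied in the series for its part in DNA repair and in the epithelial-mesenchymal transition.

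Cytochrome P450 enzymes are heme proteins that use molecular oxygen and electrons from a partner reductase to oxidise small lipophilic molecules. Members in the endoplasmic reticulum take electrons from POR, and the mitochondrial members take them from the ferredoxin FDX1 and its reductase FDXR. Adult liver is the main site of drug oxidation, largely by families CYP1, CYP2 and CYP3, and of bile acid synthesis, which needs CYP7A1, CYP8B1, CYP7B1 and CYP27A1. Other members act on fatty acids, steroid hormones, vitamin D or retinoids.

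Levels are in FPKM (fragments per kilobase of transcript, in proportion to the mapped fragments), and values are given for the control library first and the knockdown library second. With 1 library per group no difference could be set against replicate error, no test was possible, and "higher" and "lower" describe these 2 libraries. Ratios quoted beside levels are plain ratios of FPKM. The log2 ratio is log2((knockdown + 1)/(control + 1)), in which the added 1 FPKM understates the change of low genes, and counts of genes past a fold use it unless plain ratios are named. NEIL3 itself stood at 5.34 and 2.84 FPKM, a plain ratio of 0.532 and a log2 ratio of -0.724. The central 95% of all genes that reached 1 FPKM in either library ran from -0.745 to 0.745. For those with a mean under 5 FPKM it ran from -1.01 to 0.92, so the NEIL3 difference lay within the spread of other genes. All 9 hepatocyte markers checked reached 1 FPKM, from ALB at 1346 and 1272 FPKM to TTR at 1.65 and 7.81 FPKM. Their sum was 2108 and 2390 FPKM. Of the 9, 3 (AFP, TTR and SERPINA1), or 33.3%, were at least 1.5-fold higher and 0 lower in the knockdown library. Over all genes that reached 1 FPKM in either library, 4.55% were higher and 4.48% lower. The part of this marker difference in the P450 values was not tested. Summed over the 4 fibroblast and stellate markers the level was 28.8 and 29.7 FPKM, while the 3 endothelial and the 3 leukocyte markers all stayed at or under 0.461 FPKM and none was listed at 0. In RNA from a whole culture, a smaller share of cells that express a gene and less RNA per cell cannot be told apart.

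The promoters of 3 neighbouring genes on chromosome 7 are shown because these genes had very unequal levels in the cells. CYP3A5 and CYP3A7, the form typical of fetal liver, were among the most abundant P450 transcripts, while CYP3A4, the main drug-oxidising form of adult liver, was under 1 FPKM. The sequences are the 250 bases before the transcript start from RefSeq (GRCh38.p14), at chr7:99784185-99784434 (minus strand) for CYP3A4, chr7:99735197-99735446 (minus strand) for CYP3A7 and chr7:99679997-99680246 (minus strand) for CYP3A5. Capitals mark matches, on either strand, to 5 motifs. These are TATAAA (the TATA box), the CCAAT box (spelled as its name), the core AGGTCA bound by many nuclear receptors, the core GCGTG bound by the aryl hydrocarbon receptor, and an everted repeat for the pregnane X receptor. The repeat is spelled TGAACT, then 6 further bases of any kind, then the same nuclear receptor core, with which it overlaps.
CYP3A4: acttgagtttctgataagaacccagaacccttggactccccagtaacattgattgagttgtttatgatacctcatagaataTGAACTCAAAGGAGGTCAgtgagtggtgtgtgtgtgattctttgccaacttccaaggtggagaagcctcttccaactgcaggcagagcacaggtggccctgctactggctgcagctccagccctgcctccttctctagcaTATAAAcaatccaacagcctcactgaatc
CYP3A7: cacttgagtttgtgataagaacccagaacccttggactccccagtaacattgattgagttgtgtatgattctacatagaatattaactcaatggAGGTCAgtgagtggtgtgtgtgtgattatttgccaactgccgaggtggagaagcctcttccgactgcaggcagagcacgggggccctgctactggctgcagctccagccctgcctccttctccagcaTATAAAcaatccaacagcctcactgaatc
CYP3A5: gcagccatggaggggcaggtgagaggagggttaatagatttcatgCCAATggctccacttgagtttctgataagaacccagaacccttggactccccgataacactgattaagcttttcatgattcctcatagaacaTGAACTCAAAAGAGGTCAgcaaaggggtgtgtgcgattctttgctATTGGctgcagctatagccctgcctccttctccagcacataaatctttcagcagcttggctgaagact
The CYP3A4 and CYP3A7 sequences matched at 236 of 251 aligned positions (94.02%). Both held TATAAA 29 bases before the start, and both held AGGTCA, 157 and 156 bases before it. The everted repeat was present in CYP3A4 and in CYP3A5, 169 and 113 bases before the start, and these letters were not in the CYP3A7 window. Identity with CYP3A5 was 52.6% for CYP3A4 and 51.8% for CYP3A7. The CYP3A5 window held AGGTCA 101 bases and CCAAT 205 and 68 bases before the start, and no TATAAA. Of 35116 RefSeq promoters of this length, 3 held the everted repeat, 12.1% held AGGTCA and 10.7% held TATAAA. These matches are descriptions of the letters only. Distances here and below are counted from the RefSeq start, and the gene as listed with its FPKM can begin further upstream. The listed genes reach 99784265 for CYP3A4, 74725610 for CYP1A1, 59926790 for CYP2J2 and 72148038 for CYP26B1, inside the windows shown.

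Expression of the family was concentrated in few genes. In the control 20 of the 54 genes reached 1 FPKM, in the knockdown library 18 did, and 21 genes did so in 1 library or both. The summed level of the family was 188 and 204 FPKM, or 0.0446% and 0.0475% of the FPKM of all genes that are not mitochondrially encoded. The 5 most abundant genes, CYP27A1, CYP3A5, CYP4F3, CYP3A7 and CYP4F11, were the same in both libraries and made up 58.0% and 60.0% of the family's sum. The remaining 33 genes were under 1 FPKM in both libraries, and 7 of them were at the lowest listed value, 1e-05 FPKM, in both.

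Most P450 genes above 1 FPKM lay within 1.5-fold between the libraries. Of the 21, 2 were at least 1.5-fold higher in the knockdown library (CYP2J2 and CYP27B1), 2 at least 1.5-fold lower (CYP26B1 and CYP11A1) and 17 within 1.5-fold. Over all 14209 genes that reached 1 FPKM in either library, 4.55% passed 1.5-fold upward and 4.48% passed it downward. The P450 share was 9.52% in each direction, of which a single gene makes 4.76%. All 4 genes were among the 11 P450 genes analysed with a mean under 5 FPKM. In that range 2 of the 11, or 18.2%, passed 1.5-fold in each direction, against 6.91% upward and 8.68% downward of all genes. The 10 P450 genes with a mean of 5 FPKM or more were all within 1.5-fold, with log2 ratios from -0.30 to 0.38. In the slightly wider set of all genes with 5 FPKM or more in at least 1 library, 3.95% were higher and 3.18% lower. That wider set held 12 P450 genes, of which CYP2J2 was higher and CYP26B1 lower. Most genes at such levels thus lay within 1.5-fold. The family's median log2 ratio was 0.06, against 0.02 over all genes analysed. At 2-fold, CYP2J2 alone was higher and CYP26B1 alone lower, against 1.34% and 1.28% of all genes. By the plain ratio CYP2B6 joined the higher genes, giving 3 higher and 2 lower of the 21, against 6.88% and 7.23% of the genes above the floor. CYP2B6 reached 1 FPKM in the knockdown library alone and CYP11A1 in the control alone, so that limit favours the direction each took. In the authors' deposited table, none of the 54 genes (0) had a q-value under 0.05, against 13 genes in the whole table, and the lowest q of a P450 gene was 0.698, for CYP19A1.

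**Figure D1:**
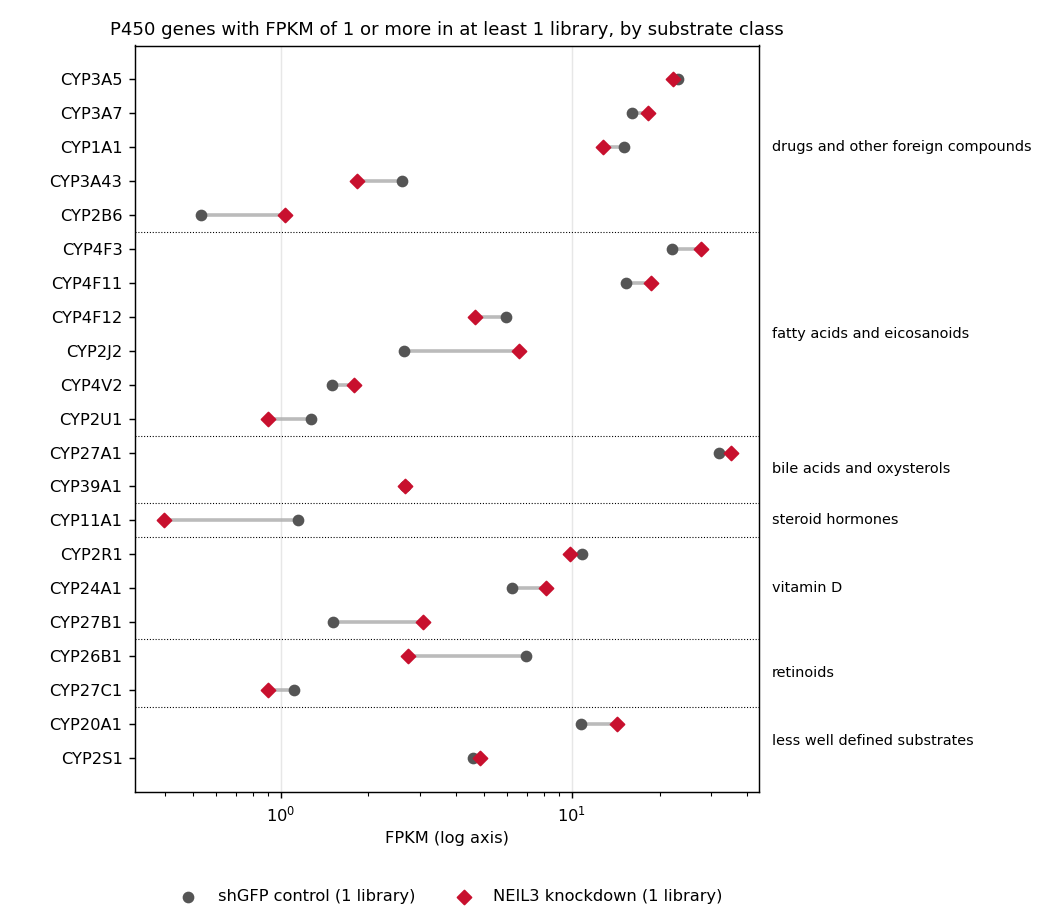
FPKM on a log axis of the 21 P450 genes that reached 1 FPKM in at least 1 library, grouped by substrate class, with a grey circle for the control and a red diamond for the knockdown library (1 library each, so no error bars). CYP2J2, CYP27B1 and CYP2B6 lie to the right in the knockdown library and CYP26B1 and CYP11A1 to the left, while the most abundant genes nearly coincide.

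**Figure D2:**
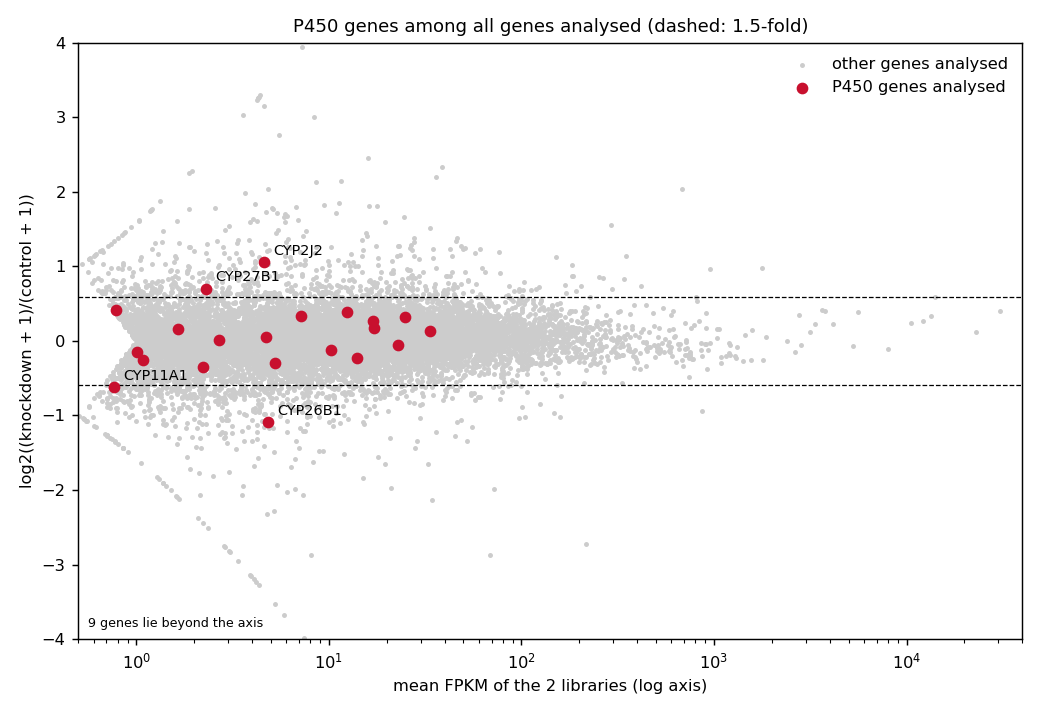
The log2 ratio of knockdown to control, with 1 FPKM added to both, against mean FPKM on a log axis for 14209 genes, with the 21 P450 genes in red and dashed lines at 1.5-fold; 9 other genes lie beyond the vertical axis. The 4 named P450 genes lie outside the dashed lines, at low mean FPKM, where the other genes also spread most.

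Among the P450 genes of drug and foreign compound metabolism, 5 of 17 reached 1 FPKM and all 5 lay within 1.5-fold by the log2 ratio. Most genes did so, since 9.04% of all genes analysed were 1.5-fold apart. CYP3A5 stood at 23.2 and 22.2 FPKM and CYP3A7 at 16.1 and 18.3 FPKM. CYP3A43, a minor form of the same cluster, stood at 2.60 and 1.83 FPKM, and CYP3A4 at 0.713 and 0.822 FPKM. The 4 genes span 218 kb on chromosome 7 (99648194 to 99866102, GRCh38), and their order of levels was the same in both libraries. The value of CYP3A7 is uncertain, because 54.3% of the 50-base words of its longest GENCODE transcript also occur in the readthrough gene CYP3A7-CYP3A51P, listed at 1.04 and 0.356 FPKM. For CYP3A5 and CYP3A4 the share of words found in any other gene was 2.42% and 7.50%.

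CYP1A1, which oxidises polycyclic aromatic hydrocarbons and is a standard target of the aryl hydrocarbon receptor, stood at 15.1 and 12.8 FPKM. Its relatives were far lower, with CYP1B1 at 0.339 and 0.411 FPKM and the adult liver form CYP1A2 at 0.0853 and 0.0583 FPKM. CYP1A1 and CYP1A2 are neighbours on chromosome 15, and CYP1A1 was the higher of the pair in both libraries. The CYP1A1 promoter (chr15:74725529-74725778 (minus strand)) is shown with the same capitals, because this receptor is the best known control of the gene.
CYP1A1: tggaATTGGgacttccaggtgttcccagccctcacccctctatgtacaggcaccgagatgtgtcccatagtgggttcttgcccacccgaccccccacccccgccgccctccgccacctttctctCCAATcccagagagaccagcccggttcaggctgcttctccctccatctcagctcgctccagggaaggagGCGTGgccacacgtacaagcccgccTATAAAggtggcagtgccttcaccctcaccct
It held GCGTG 57 bases, TATAAA 32 bases and CCAAT 126 and 246 bases before the start, and GCGTG occurred in 32.2% of all promoters.

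The other drug-metabolising genes were low. CYP2B6, which oxidises several antidepressant and antiviral drugs, was at 0.531 and 1.03 FPKM, a plain ratio of 1.95 but a log2 ratio of 0.41. It was the member that passed the 1 FPKM limit by the least, and only in the knockdown library. CYP2E1, the ethanol-oxidising form, was just below that limit, at 0.384 and 0.889 FPKM. Of genes that lie together on chromosome 10, CYP2C18 stood at 0.127 and 0.159 FPKM, CYP2C8 at 0.0640 and 0.138 FPKM and CYP2C19 at 0.0450 and 0.0281 FPKM. All were far below 1 FPKM in both libraries. CYP2D6, a main enzyme for antidepressants and opioids, stood at 0.0753 and 0.125 FPKM, and the nicotine-oxidising CYP2A6 at 0.0170 and 0.0546 FPKM. CYP2A13 and CYP2F1, known from the airways, were listed at the floor in both libraries. How many fragments lie behind these low levels is unknown, and no fold is read from them.

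Genes acting on fatty acids and eicosanoids held the highest P450 gene by log2 ratio. CYP2J2, an epoxygenase of arachidonic acid (ENSG00000134716, chromosome 1, 59893308 to 59926790, minus strand), stood at 2.66 FPKM in the control against 6.60 FPKM after knockdown. This is 2.48-fold higher in the knockdown library, with a log2 ratio of 1.05. None of the 50-base words of its longest transcript occurred in another gene. Its promoter (chr1:59926774-59927023 (minus strand)) is shown because it is the member with the highest log2 ratio.
CYP2J2: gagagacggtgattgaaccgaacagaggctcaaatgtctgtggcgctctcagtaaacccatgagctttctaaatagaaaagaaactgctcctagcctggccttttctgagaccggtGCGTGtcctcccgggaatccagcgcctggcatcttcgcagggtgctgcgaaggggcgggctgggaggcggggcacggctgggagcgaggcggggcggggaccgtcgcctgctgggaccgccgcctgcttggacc
Of the letters searched, it held only GCGTG, 134 bases before the start.

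The CYP4F genes, whose products hydroxylate the ends of leukotrienes and long fatty acids, lie as 6 genes on chromosome 19 (15508493 to 15934867). CYP4F3 stood at 22.0 and 27.8 FPKM, CYP4F11 at 15.4 and 18.7 FPKM and CYP4F12 at 5.92 and 4.64 FPKM. The other members of the cluster were near the bottom, with CYP4F2 at 0.0986 and 0.114 FPKM, CYP4F8 at 0.0449 and 0.0945 FPKM and the skin form CYP4F22 at 0.0241 and 0.00797 FPKM. CYP4F3 and CYP4F2 share sequence: 17.2% of the words of CYP4F2 occur in CYP4F3 and 8.10% of those of CYP4F3 in CYP4F2. Outside the cluster, CYP4V2, a fatty acid hydroxylase, stood at 1.504 and 1.787 FPKM and CYP2U1 at 1.27 and 0.904 FPKM. CYP4B1 was under 1 FPKM in both libraries, at 0.168 and 0.472 FPKM. CYP4A11, a fatty acid hydroxylase of adult liver and kidney, was listed at the floor in the control and at 0.0124 FPKM in the knockdown library, and CYP4A22 at the floor in both.

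Of the 6 genes of bile acid and oxysterol metabolism, CYP27A1 was the most abundant P450 gene in both libraries. This mitochondrial sterol hydroxylase, which starts the acidic route of bile acid synthesis, stood at 32.1 and 35.2 FPKM, a ratio of 1.095. CYP39A1, an oxysterol hydroxylase, stood at 2.67 and 2.68 FPKM. CYP7A1, the rate-limiting enzyme of the classic route, was listed at the floor in both libraries. CYP8B1, needed for cholic acid, stood at 0.0171 and 0.0593 FPKM, CYP7B1, which acts after CYP27A1, at 0.232 and 0.0751 FPKM, and the brain form CYP46A1 at 0.0386 and 0.0197 FPKM. Of these enzymes, then, only CYP27A1 and CYP39A1 reached 1 FPKM.

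The 3 vitamin D enzymes were all expressed. CYP2R1, which makes the circulating form of vitamin D, stood at 10.8 and 9.83 FPKM. CYP27B1, which makes the active hormone (ENSG00000111012, chromosome 12, 57762334 to 57768986, minus strand), stood at 1.51 and 3.08 FPKM, which is 2.04-fold higher in the knockdown library with a log2 ratio of 0.70. Its exons share 107 bases (3.11%) with METTL1 on the same strand, listed at 10.4 and 14.6 FPKM, so fragments there could be assigned to either gene. CYP24A1, which degrades the hormone, stood at 6.24 and 8.16 FPKM, within 1.5-fold. The vitamin D receptor VDR was at 0.121 and 0.147 FPKM.

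Of the 4 genes of retinoid metabolism, 2 reached 1 FPKM, both with a log2 ratio below 0, as 47.0% of all genes analysed had, and 1 of them was past 1.5-fold. CYP26B1, which degrades retinoic acid (ENSG00000003137, chromosome 2, 72129238 to 72148038, minus strand), stood at 6.95 FPKM in the control against 2.74 FPKM after knockdown. It was 2.53-fold lower, with a log2 ratio of -1.09, and shared no 50-base word with another gene. CYP26A1 stood at 0.351 and 0.216 FPKM and its neighbour CYP26C1 at 0.231 and 0.0766 FPKM, both retinoic acid hydroxylases of family CYP26. Their values are uncertain, since 32.0% and 14.9% of their 50-base words also occur in the gene AL358613.3. CYP27C1, a retinoid desaturase, stood at 1.11 and 0.902 FPKM. It was counted only because of its control value, so its log2 ratio below 0 followed from the 1 FPKM limit. The CYP26B1 promoter (chr2:72147863-72148112 (minus strand)) is shown as that of the member with the lowest log2 ratio; by the plain ratio CYP11A1 was lower still.
CYP26B1: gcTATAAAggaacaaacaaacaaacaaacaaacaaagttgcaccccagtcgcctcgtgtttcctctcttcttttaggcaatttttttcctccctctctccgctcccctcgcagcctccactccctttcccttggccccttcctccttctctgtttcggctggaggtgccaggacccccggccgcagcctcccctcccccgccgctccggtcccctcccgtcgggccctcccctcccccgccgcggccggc
It held TATAAA 248 bases before the start and none of the other letters searched.

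Genes of steroid hormone synthesis were nearly silent, with 1 of 6 at 1 FPKM or more. CYP11A1, which cleaves the side chain of cholesterol and so starts steroid hormone synthesis, stood at 1.14 and 0.395 FPKM. It was 2.89-fold lower by the plain ratio, with a log2 ratio of -0.62. It was counted only because of its control value, and 21.2% of its exon bases lie opposite the antisense gene AC090826.1; the strand setting of the authors was not given in the sources used here. CYP19A1, the aromatase that makes estrogens, stood at 0.133 and 0.669 FPKM, both below the 1 FPKM limit. CYP21A2 was listed at the floor in the control and at 0.119 FPKM in the knockdown library, and CYP11B1 at 0.0153 FPKM in the control and at the floor in the knockdown library. CYP17A1 and CYP11B2 were at the floor in both. No fold is given where a gene is listed at the floor.

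Of the 6 genes whose substrates are less well defined, CYP20A1 was the most abundant, at 10.7 and 14.3 FPKM. CYP2S1 stood at 4.59 and 4.82 FPKM. CYP2W1, known from fetal gut and colon tumours, stood at 0.259 and 0.271 FPKM, CYP4X1 at 0.119 and 0.104 and CYP4Z1 at 0.0227 and 0.0493. CYP2A7 was at the floor in both libraries.

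**Figure D3:**
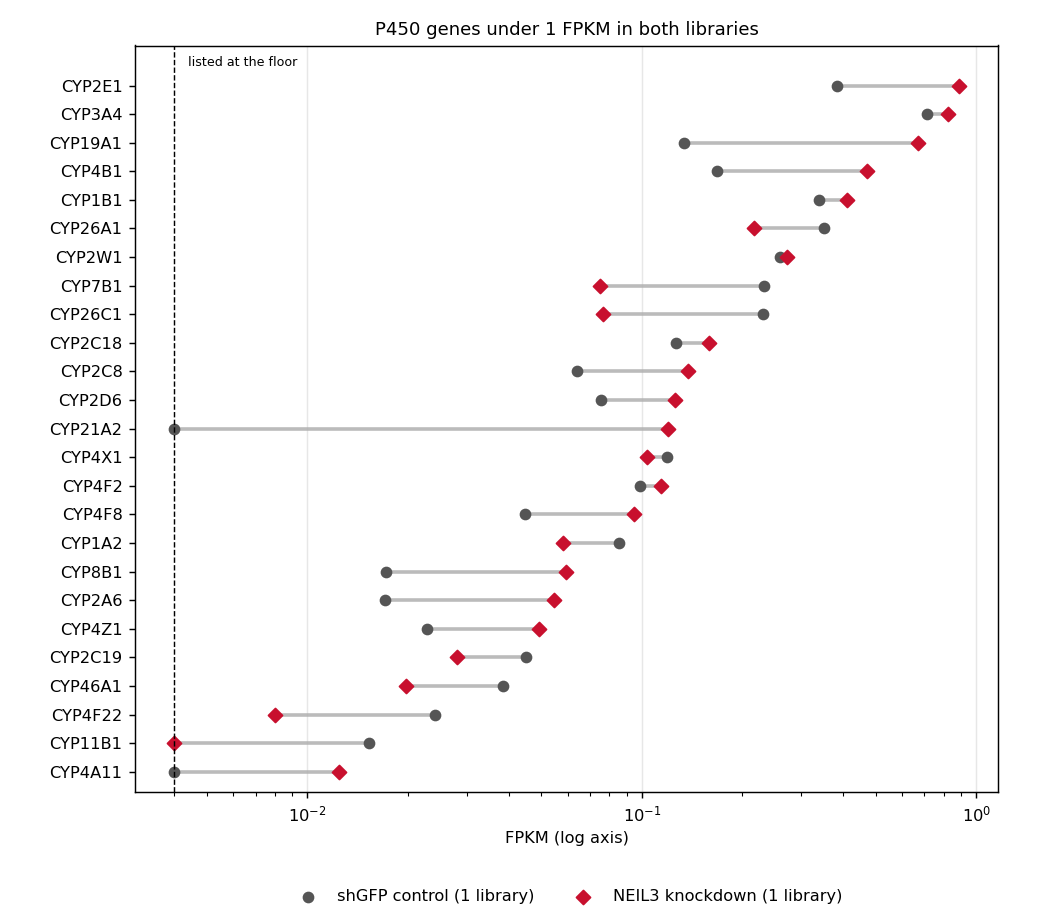
FPKM on a log axis of 25 P450 genes that were under 1 FPKM in both libraries and above the floor in at least 1, with the control as grey circles and the knockdown as red diamonds (1 library each). Values listed at the floor are drawn on the dashed line, which is not to scale; the values spread in both directions, and none of these genes entered the counts past a fold.

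The genes that supply P450 enzymes with electrons and heme lay within 1.5-fold, as most genes did, since 9.04% of all genes analysed were 1.5-fold apart. All 8 electron transfer genes reached 1 FPKM, 7 with a log2 ratio above 0, as 53.0% of all genes analysed had, and 1 below, with a median of 0.15 against 0.02 over all genes. The most abundant were the cytochrome b5 gene CYB5B, at 130 and 172 FPKM, and PGRMC1, a heme-binding membrane protein, at 101 FPKM in both libraries. POR stood at 34.2 and 38.9 FPKM, FDX1 at 4.70 and 4.85 FPKM and FDXR at 5.11 and 4.22 FPKM. The 8 heme synthesis genes had a median log2 ratio of 0.0038, 4 above 0 and 4 below. CPOX stood at 28.9 and 28.7 FPKM, UROD at 28.7 and 33.4 FPKM and the first enzyme ALAS1 at 11.4 and 12.6 FPKM.

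Of 49 partner genes listed, 43 reached 1 FPKM and 5 lay at least 1.5-fold apart, against 9.04% of all genes analysed. Among 14 regulators that reached 1 FPKM, NR0B2, a repressor of bile acid synthesis that is induced by the bile acid receptor, was 3.36-fold higher, at 11.3 and 38.0 FPKM. NR1H4, that receptor, was 1.65-fold lower, with 19.01 and 11.5 FPKM. By the mean of both libraries the most abundant regulators were CEBPB, at 61.8 and 50.2 FPKM, and the liver factor HNF4A, at 33.6 and 41.3 FPKM. Of the sensors that induce drug-metabolising P450 genes, AHR stood at 17.6 and 18.0 FPKM, NR1I2 (the pregnane X receptor) at 0.694 and 1.03 FPKM and NR1I3 (the constitutive androstane receptor) at 0.0831 and 0.141 FPKM.

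Among 7 further enzymes of bile acid synthesis that reached 1 FPKM, ACOX2, which shortens the side chain, was 3.11-fold higher, at 3.57 and 11.1 FPKM. The most abundant were HSD17B4, at 77.0 and 69.2 FPKM, and SCP2, at 66.3 and 70.9 FPKM, both of peroxisomal side chain shortening. The aryl hydrocarbon receptor targets went in both directions. ALDH3A1, an aldehyde dehydrogenase, was 1.67-fold higher at 12.4 and 20.7 FPKM. UGT1A6, a glucuronosyltransferase whose exons are shared with other UGT1A genes so that its value is uncertain, was 2.31-fold lower at 7.74 and 3.35 FPKM. NQO1 stood at 321 and 449 FPKM, TIPARP at 6.43 and 6.34 FPKM, and CYP1A1 within 1.5-fold, as given above. Of P450 genes named otherwise, CYP51A1 stood at 94.9 and 120 FPKM, TBXAS1 (thromboxane synthase) at 8.38 and 12.9 FPKM and PTGIS (prostacyclin synthase) at 0.511 and 0.236 FPKM.

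**Figure D4:**
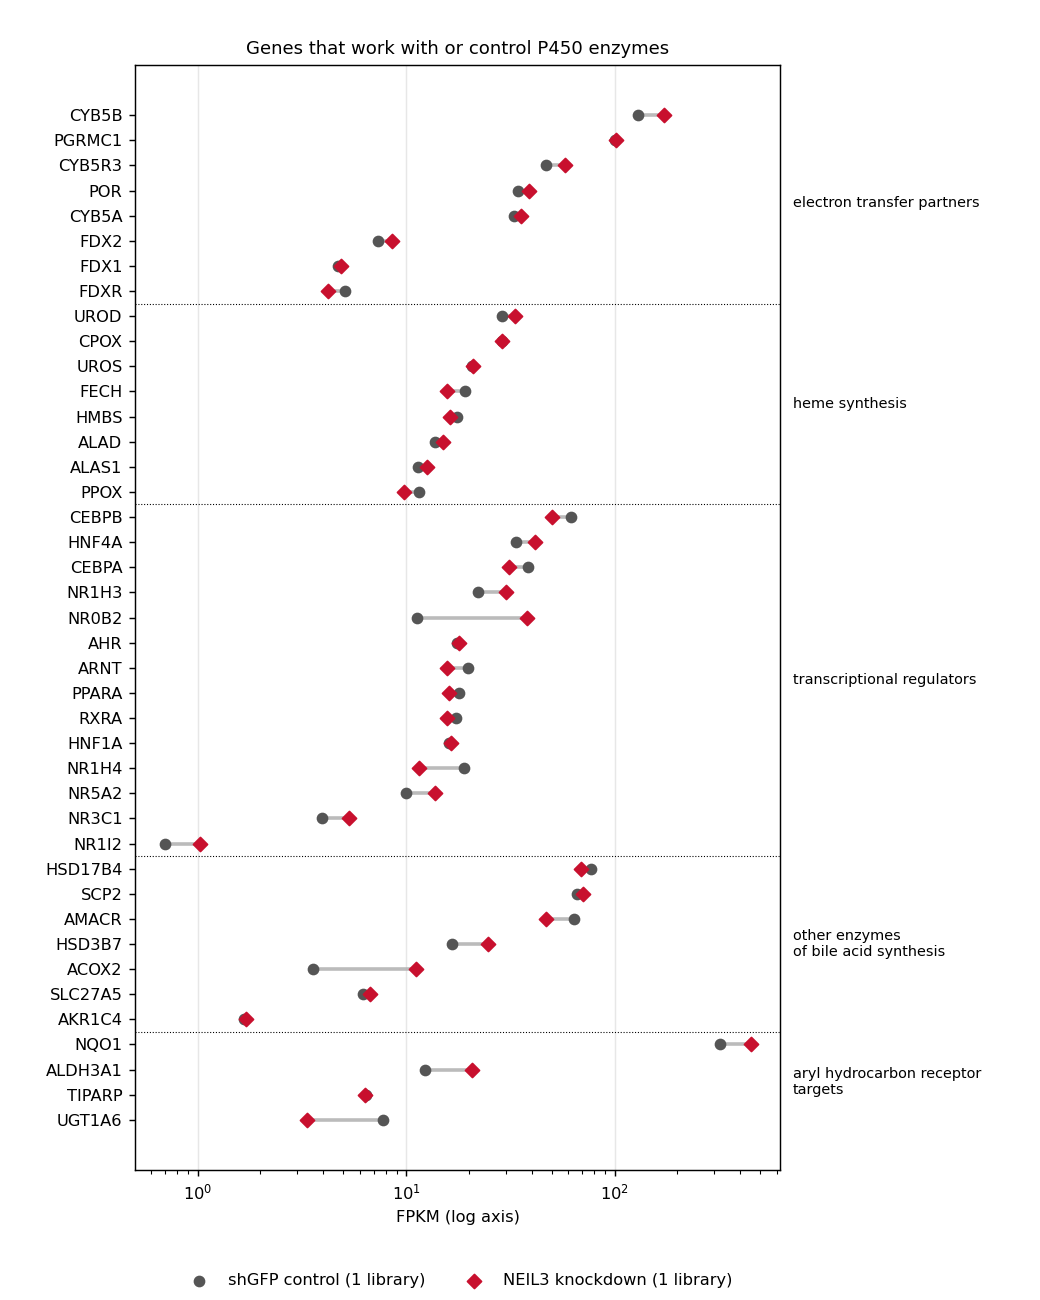
FPKM on a log axis of 41 genes of electron transfer, heme synthesis, transcriptional control, bile acid synthesis and the aryl hydrocarbon receptor that reached 1 FPKM, with the control as grey circles and the knockdown as red diamonds (1 library each). NR0B2, ACOX2 and ALDH3A1 lie to the right and NR1H4 and UGT1A6 to the left in the knockdown library, and the electron transfer and heme genes nearly coincide.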

How the data were processed

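Total RNA of 2 Huh7 cultures was sequenced after strand-specific library preparation, per the labels' protocols, with 1 library for each group. Per the submitters' processing notes, the tools were bcl2fastq, Trimmomatic 0.36, HISAT2 2.1.0, SAMtools 1.2, Cufflinks 2.2.1 and Cuffdiff, with build GRCh38.p10. The authors deposited 1 table with an FPKM value per gene and library, and p-value and q-value columns of their own comparison, per the file headers. Only the q-values were used, to count genes under 0.05.

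Rows were reduced to 56558 symbols, keeping the most abundant row (no P450 symbol had several). Log2 ratios used a pseudocount of 1 FPKM, and counts cover the 14209 symbols with 1 FPKM or more in at least 1 library. No count model was fitted, since FPKM are normalised values. Library depth is unknown. Among 6105 symbols under 0.3 FPKM in both libraries and above the floor, 660 lay within 2% of a ratio of 1.29, which would fit a knockdown library with 77.7% as many fragments as the control. The ratio rule was tested on simulated data for genes of 5 FPKM or more only, which does not cover the lower levels. Shared sequence and exons come from GENCODE release 29 (GRCh38), and promoters from RefSeq, which had 38 of the 54 genes. Scripts used Python 3.11.15, numpy 2.4.6 and pandas 2.3.3. The members, gene lists and folds were chosen with earlier results of these data known. Named were all P450 genes of 1 FPKM or more, those between 0.1 and 1 FPKM by role, and of each partner list the genes 1.5-fold apart and its 2 most abundant; P450 genes under 0.1 FPKM and other genes named, such as POR, were added for their role after the values were seen. The values of 1 P450 gene are not reported here.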

Additional observations from a re-analysis of the deposited data

How the results depend on the processing

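With a pseudocount of 5 FPKM, 1 of 21 P450 genes was at least 1.5-fold higher (CYP2J2) and 1 lower (CYP26B1). Of all genes, 1.74% were then higher and 1.25% lower, and 3 of 43 partner genes were 1.5-fold apart. With a minimum of 5 FPKM, again 1 P450 gene of 12 was higher and 1 lower, against 3.95% and 3.18% of all genes. Requiring a mean of 1 FPKM, an alternative chosen after seeing the data, left 1 lower gene (CYP26B1), since CYP11A1 passes the limit through the control alone. At that setting 4.2% of all genes were higher and 4.02% lower. By the plain ratio, or with a pseudocount of 0.1 FPKM, 3 P450 genes were higher, with CYP2B6 added, and 6 partner genes were apart, with TBXAS1 added. CYP2B6 passes the 1 FPKM limit through the knockdown library alone. By the plain ratio 6.88% of all genes were higher and 7.23% lower, and with a pseudocount of 0.1 FPKM 6.76% and 7.22%. Removing the minimum, equalising FPKM sums without mitochondrial genes, and setting the median ratio to 1 left the P450 and partner counts of the main setting unchanged. Of all genes, in that order, 2.48%, 4.15% and 3.98% were higher and 2.57%, 4.77% and 4.9% lower. The median log2 ratio of the P450 genes ran from 0.03 to 0.15 over all settings. No P450 gene past 1.5-fold changed direction under any setting, but the choice of settings fixed this outcome, so it does not test the direction. Pseudocounts, the plain ratio and the FPKM limits cannot turn a higher gene into a lower one. Equalising the sums or the median ratio shifted the log2 ratios of these genes by far less than a 1.5-fold difference. No paired analysis was possible because each group has 1 library, and leaving out a library was not possible for the same reason. Depth is unknown, so the values of the 33 genes under 1 FPKM are given without a call.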

Other observations

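The table also lists 48 P450 pseudogenes, of which 33 were at the floor in both libraries and 2 reached 1 FPKM in at least 1 library. Both are processed copies of CYP51A1, with CYP51A1P2 at 2.33 and 2.58 FPKM and CYP51A1P1 at 1.41 and 1.16 FPKM. Their values are uncertain, since processed copies resemble their parent gene, which was far more abundant. CYP2B7P, a neighbour that shares 9.89% of the 50-base words of CYP2B6, stood at 0.131 and 0.0591 FPKM, and no fold is read from these low values. CYP3A51P was listed at 0.255 FPKM in the control and at the floor in the knockdown library.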
